A study of Sus scrofa with 63 samples.

Results

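Aquaporins are membrane channels that let water, and in some members glycerol, cross the cell membrane along its gradient. In the small intestine they sit on the apical, basolateral and intracellular membranes of enterocytes and on the vessels of the villus, where they take part in fluid absorption and secretion. AQP1, AQP4, AQP5 and AQP8 are mainly water channels, AQP3, AQP7, AQP9 and AQP10 are aquaglyceroporins that also carry glycerol, and AQP11 is an intracellular member of the family. All probes of the array whose gene name was one of these 9 members were taken, which gave 18 of the 60305 probes and covered 7 genes. No probe carried the name AQP8 or AQP11. For these genes 1 probe each was named through its reference transcript, since the array listed them under locus numbers (LOC100127152 for AQP8 and LOC100127151 for AQP11), so that 20 probes stood for 9 genes.

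The arrays measured RNA of a middle segment of the jejunum, the main absorptive part of the small intestine, in 63 male pig fetuses at day 90 or day 110 of gestation. Purebred LW (Large White, n = 9 at day 90 and 9 at day 110) and MS (Meishan, n = 6 and 7) fetuses were compared, together with their reciprocal crosses LWMS (MS sow and LW sire, n = 9 and 9) and MSLW (LW sow and MS sire, n = 8 and 6). Sows were inseminated with mixed semen, so that a litter held both purebred and crossbred fetuses, and fetuses were kept for the array by the quality of their RNA. The sow is not given in the labels, so littermates could not be modelled and the p-values may be too small. The study asked how the intestine of these breeds, which differ in maturity at birth, develops late in gestation.

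Levels are log2 signals minus the 75th percentile of the array, so that 0 is the level of a bright probe and a difference of 1 is a 2-fold change. Between 51.2 and 87.6% of the probes of an array were well above background, and no spot was saturated. All 8 of the 10 enterocyte markers found on the array by name were tested (ALPI, ANPEP, APOA4, APOB, FABP1, FABP2, LCT and SI), and their mean level ran from 2.52 to 4.11 at day 90 and from -0.59 to 5.32 at day 110. At day 110, 4 fetuses lay below every fetus of day 90 on this mean, namely LW fetuses 559 (2.42), 572 (2.24) and 575 (1.06) and MS fetus 632 (-0.59). Some results are given with and without these fetuses, a choice made after seeing the data, and the others with all fetuses only. Only fetuses of day 110 were left out, by markers that moved with AQP3, AQP8, AQP10 and AQP11 (r given below). Leaving them out therefore raises the day 110 levels of these genes and narrows their spread in advance. Because most of them are LW, it also shifts the breed and sow comparisons in advance. Age, breed or sow calls gained this way, or spread calls lost, cannot be told apart from the effect of the removal. Smooth muscle markers, of which all 6 were tested, lay between 4.32 and 5.75 in every fetus, as in a sample of the whole intestinal wall. In bulk tissue, fewer cells of a type and less RNA per cell cannot be told apart.

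Of the 20 probes, 12 passed the filter (a signal well above background in 75% or more of the fetuses of some group) and were tested, namely all probes of AQP1 (3), AQP3 (4), AQP8 (1), AQP10 (3) and AQP11 (1). The 8 probes of AQP4, AQP5, AQP7 and AQP9 did not reach this level. The probes that carry the results are 60-base oligonucleotides, shown here as designed, in lower case and 5′ to 3′, because the 3 AQP10 probes read different stretches of the gene and gave different levels. No run of 12 or more bases was shared between the AQP10 probes.
AQP10 A_72_P442121: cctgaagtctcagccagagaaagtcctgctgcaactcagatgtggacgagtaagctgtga
AQP10 A_72_P613152: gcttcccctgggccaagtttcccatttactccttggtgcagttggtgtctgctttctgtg
AQP10 O14058: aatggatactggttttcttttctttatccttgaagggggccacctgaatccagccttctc
AQP8 A_72_P178106: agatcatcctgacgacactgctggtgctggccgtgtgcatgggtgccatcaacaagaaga
AQP3 A_72_P088641: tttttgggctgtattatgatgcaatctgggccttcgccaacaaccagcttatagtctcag
Of the other AQP3 probes, O8153 and A_72_P136686 share 59 of their 60 bases and are not independent measures. The AQP7 probes O545 and A_72_P106716 have the same 60 bases.

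AQP10, the aquaglyceroporin known from the apical membrane of small intestinal enterocytes, was lower in MS than in LW fetuses and varied widely between fetuses at day 110. With probe A_72_P442121, LW fetuses at day 90 had a lowest level of 2.52, a median of 3.10 and a highest of 4.17, against 1.02, 1.45 and 2.37 in MS fetuses. The 2 breeds did not overlap at day 90 with this probe, but the lowest LW fetus (2.52) was close to the highest MS fetus (2.37). The difference was not called, and the share of all tested probes that separate the breeds in this way is not given. LWMS fetuses (2.16, 2.66 and 3.32) and MSLW fetuses (0.84, 2.51 and 3.38) overlapped with both breeds. At day 110, LW fetuses ran from -0.45 through a median of 3.56 to 5.39, and MS fetuses from -5.53 through 0.17 to 4.20. The crosses at day 110 were higher and closer together, with 2.47, 4.96 and 5.41 in LWMS and 3.34, 4.60 and 5.38 in MSLW. In the order of the means, LWMS at day 110 (4.76 ± 0.92, SD, n = 9) stood first, followed by MSLW at day 110 (4.39 ± 0.85, SD, n = 6), LW at day 90 (3.18 ± 0.50, SD, n = 9), LW at day 110 (3.08 ± 2.27, SD, n = 9) and LWMS at day 90 (2.77 ± 0.41, SD, n = 9). MSLW at day 90 (2.24 ± 0.93, SD, n = 8), MS at day 90 (1.61 ± 0.60, SD, n = 6) and MS at day 110 (-0.07 ± 3.60, SD, n = 7) came last. Between neighbours of this order, the step from MSLW at day 110 to LW at day 90 was the only one that exceeded the larger SD of its pair, and the ranges of all neighbours overlapped.

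**Figure D1:**
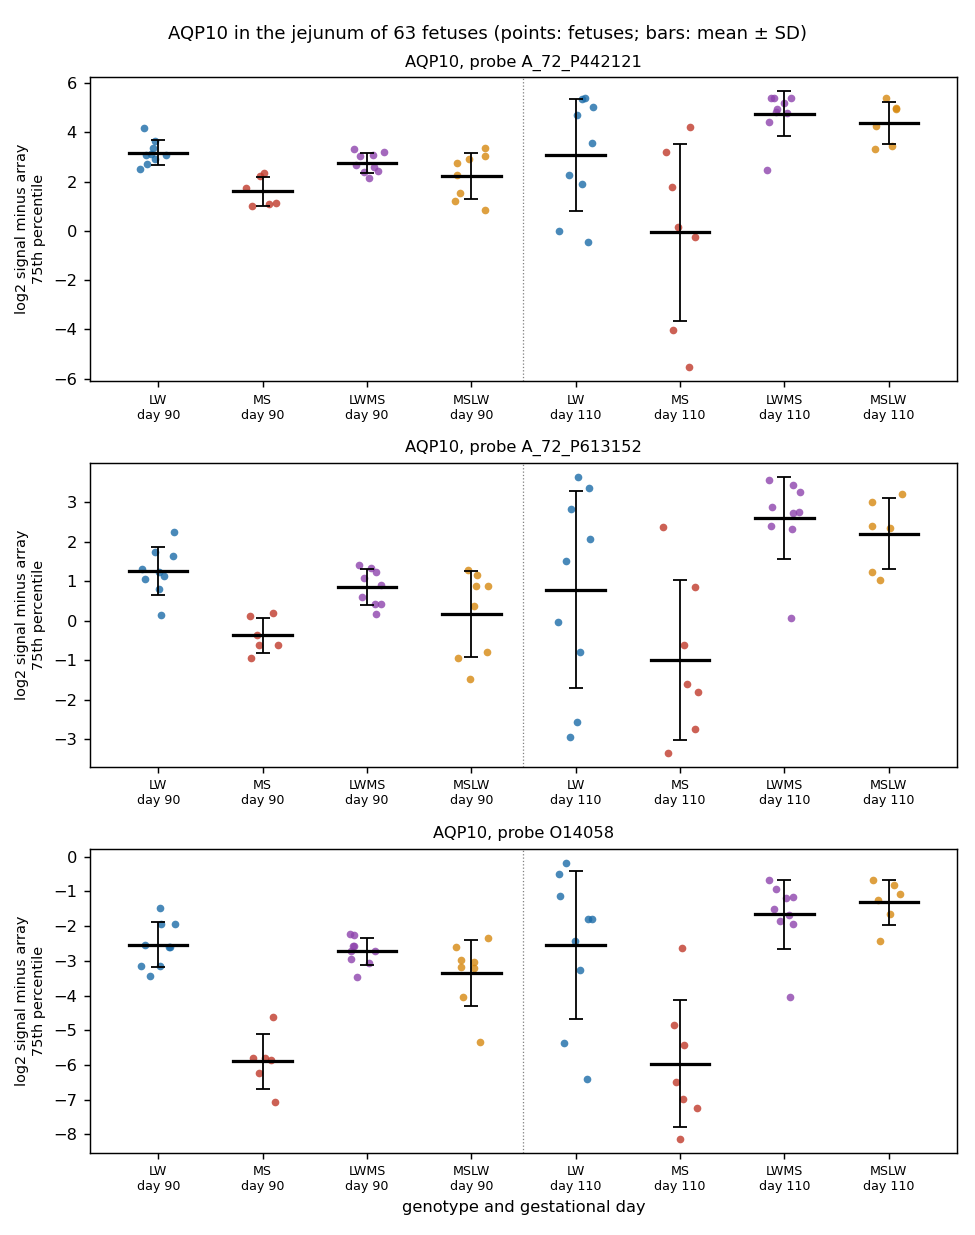
The 3 AQP10 probes in each of the 63 fetuses, as log2 signal minus the array's 75th percentile (y axis), by genotype and gestational day (x axis). Points are fetuses and bars are mean ± SD. At day 110 the MS fetuses of probe A_72_P442121 run from -5.53 to 4.20, while the LWMS fetuses lie between 2.47 and 5.41.

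In the breed comparison, 2 of the 12 aquaporin probes were called at day 110, both of AQP10 and both lower in MS, where 4.99% of all tested probes were called in either direction and 3.15% lower. A call here needs an adjusted p no higher than 0.01, taken over all tested probes, and a log2 difference of 0.5 or more. Probe A_72_P442121 differed by -3.15 (SE 0.78, 95% interval -4.72 to -1.58), that is, AQP10 was 8.85-fold lower in MS, with an adjusted p of 0.00446 in limma. Probe O14058, which was well above background on only 2 of 7 MS arrays and 8 of 9 LW arrays, differed by -3.42 (SE 0.59, adjusted p = 3.28e-05, limma), and probe A_72_P613152 by -1.77 (SE 0.66, adjusted p = 0.0774, limma), which was not called. The 3 probes gave the same direction and different sizes. At day 90, 1 of the 12 probes was called, O14058, against 3.58% of all tested probes. It was lower in MS, where 1 of 6 arrays measured it above background (log2 difference -3.36, SE 0.62, adjusted p = 0.000112, limma), while A_72_P442121 (-1.57, 95% interval -3.21 to 0.07) and A_72_P613152 (-1.62, -3.01 to -0.23) were not called.

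Probe O14058 was dim in MS fetuses. On 9 of 9 LW arrays at day 90 it was well above background, so that the probe passed the filter through the groups other than MS, and the size of its breed difference rests on MS levels close to what the array can measure. On this probe, MS fetuses at day 90 lay between -7.08 and -4.62 and LW fetuses between -3.44 and -1.48, without overlap (the share of all tested probes is not given). At day 110 MS fetuses lay between -8.13 and -2.63 and LW fetuses between -6.42 and -0.17, with overlap. Leaving out the 4 fetuses of low enterocyte markers, the breed difference at day 110 was -3.79 for A_72_P442121, -2.82 for A_72_P613152 and -4.57 for O14058, and all 3 AQP10 probes were called. However, 3 of these 4 fetuses are LW, and they were the lowest LW fetuses of day 110 on all 3 probes. Their removal raises the LW mean in advance, so the larger difference and the gained call cannot be told apart from it.

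The AQP10 call for A_72_P442121 at day 110 rested on single fetuses. Its value ranged from -3.86 to -2.23 when each of the 63 fetuses was left out in turn, and the call was lost without MS fetus 623 or 632 or without LW fetus 469, 670, 852 or 854, with a highest adjusted p of 0.0343 in limma. It was also lost with slide as a block (-2.98, adjusted p = 0.0135, limma) and with array weights (-1.56, adjusted p = 0.0694, limma). In the slides that held both breeds, A_72_P442121 was lower in MS on 4 of 5 slides at day 110 (range -9.10 to 0.96) and on 6 of 6 slides at day 90 (range -2.09 to -0.83). Probe O14058 was lower in MS on 5 of 5 and on 6 of 6 slides, with the same limit on its MS levels. On each such slide a single MS fetus of the age was set against very few LW fetuses, and slides without both breeds are not counted.

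The MS fetuses with little AQP10 at day 110 were not those with few enterocyte markers in every case. MS fetuses 401 and 409 had enterocyte marker means of 5.32 and 4.89, among the highest of the study, with AQP10 at -0.25 and 0.17 on A_72_P442121. Fetus 632 had -0.59 for the markers and -4.02 for AQP10. Fetus 623 had the lowest AQP10 of all, -5.53, beside a marker mean of 2.81. On A_72_P613152 the same fetus stood at -2.74, above fetus 632 at -3.34. In LW fetuses at day 110, the lowest AQP10 levels, -0.45 in fetus 575 and 0 in fetus 572, went with the lowest marker means of that group, 1.06 and 2.24.

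Averaged over sow and age, AQP10 was lower in fetuses of MS sires on all 3 probes, but not in every pair of groups. The comparison of MS with LW sires, averaged over the sow and the age, called 3 of the 12 aquaporin probes at an adjusted p under 0.05, and these were the 3 AQP10 probes, where 6.95% of all tested probes were called and 3.84% lower. AQP10 was lower with an MS sire by -1.40 (SE 0.40, adjusted p = 0.0186, limma) on A_72_P442121, by -1.11 (SE 0.34, adjusted p = 0.0292, limma) on A_72_P613152 and by -1.76 (SE 0.30, adjusted p = 2.75e-05, limma) on O14058. Probe O14058 was well above background on only 1 of 6 MS arrays at day 90 and 2 of 7 at day 110. Its sire and sow differences thus rest in part on MS levels close to what the array can measure. Within slides, the mean of all MS-sired fetuses minus that of all LW-sired fetuses was negative on 7 of 8 slides for A_72_P442121 and A_72_P613152. For O14058 it was negative on 8 of 8. These slide values are not balanced over sow and age, so they mix the sire with the purebred and age composition of a slide. Among fetuses of LW sows at day 110 the means ran the other way, with MSLW above LW on A_72_P442121 (4.39 against 3.08), A_72_P613152 (2.20 against 0.79) and O14058 (-1.31 against -2.54). Among fetuses of MS sows at day 110, MS lay below LWMS on the same probes (-0.07 against 4.76, -0.98 against 2.60 and -5.96 against -1.66). At day 90 the MS-sired group had the lower mean with either sow on all 3 probes. Whether the sire difference depends on the sow was not tested. Comparing MS with LW sows called 2 of the 12 probes, against 16% of all tested probes. One was O14058, lower with an MS sow by -1.63 (SE 0.30, adjusted p = 6.55e-05, limma). Probes A_72_P442121 (-0.96, 95% interval -1.75 to -0.16, adjusted p = 0.0926, limma) and A_72_P613152 (-0.58, -1.25 to 0.09) were not called for the sow, and were called without the 4 fetuses of low enterocyte markers (-1.12 and -0.84). Of these 4 fetuses, 3 had LW sows and were the lowest of that sow breed at day 110 on both probes. Removing them raises the side of the LW sows in advance, so these 2 sow calls cannot be told apart from the removal. Whether sire and sow differ in size was not tested.

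No aquaporin but AQP8 was called for gestational age in the 63 fetuses. The age change of AQP10 was not called in any genotype, with 1.99 in LWMS (SE 0.73, adjusted p = 0.0459, limma) and 2.15 in MSLW (SE 0.84, adjusted p = 0.0838, limma) on A_72_P442121, beside -0.10 in LW (95% interval -1.57 to 1.37) and -1.67 in MS (-3.41 to 0.06). Without the 4 fetuses of low enterocyte markers, the change averaged over the genotypes was called on all 3 AQP10 probes, with 1.08 on A_72_P442121, 1.13 on A_72_P613152 and 1.09 on O14058. Across genotypes, 17 of the 31 fetuses at day 110 lay above the highest and 6 below the lowest fetus of day 90 on this probe. The test of whether the age change differed between the 4 genotypes called none of the 12 aquaporin probes in limma (0.0222% of all tested probes were called). For A_72_P442121 its unadjusted p was 0.0041 and its adjusted p 0.333, and 2 of the 12 probes had an unadjusted p under 0.05. The breed by age interaction called none of the 12 either, against 0.0173% of all, with 1 probe at an unadjusted p under 0.05, and the interaction of sow breed with age called none, against 0.388% of all, with 0 probes at that level. An F test over the 8 group means called 4 of the 12 probes, the 3 of AQP10 and that of AQP8, beside 28.7% of all tested probes.

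**Figure D2:**
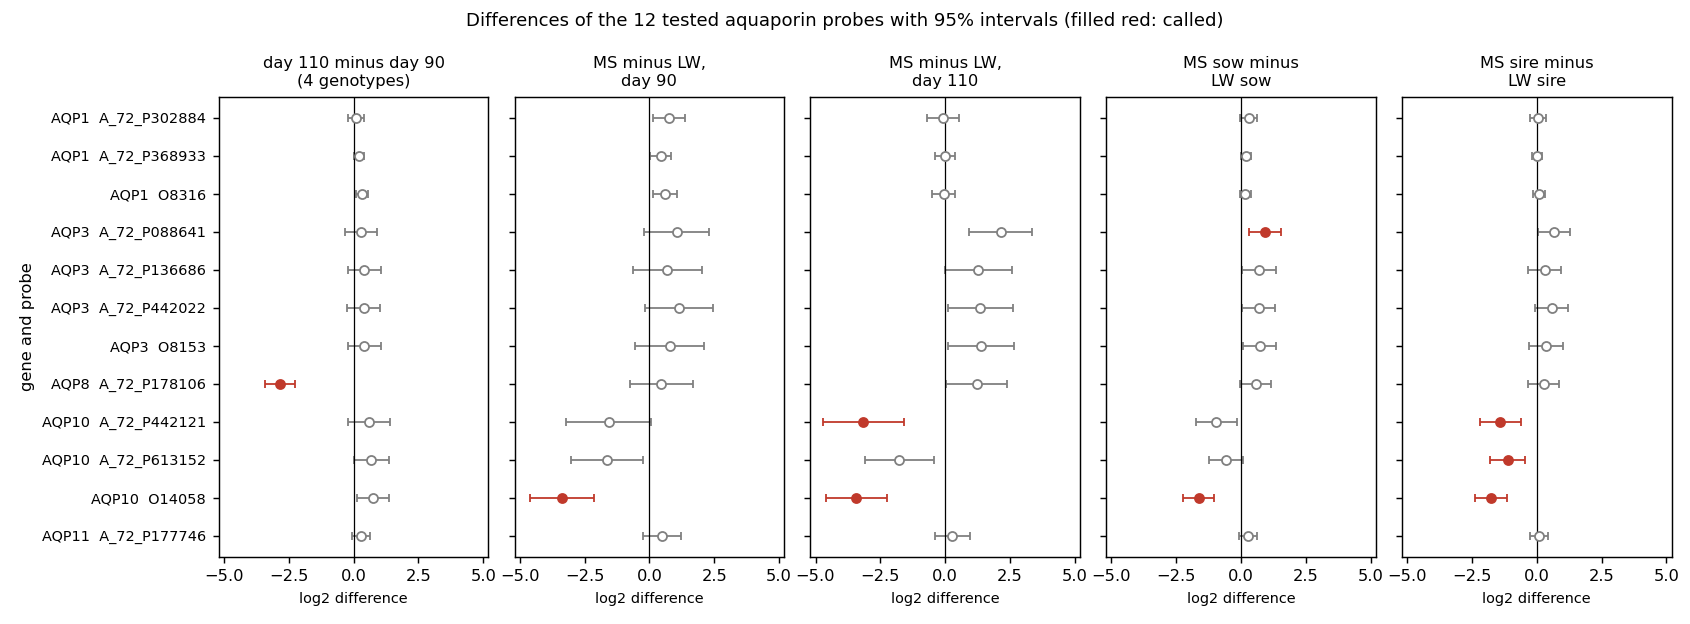
Log2 differences (x axes) of the 12 tested aquaporin probes (y axis) in 5 comparisons, with 95% intervals. Filled red points were called and open grey points were not. AQP8 stands at -2.84 for age, and the AQP10 probes lie on the side of lower levels in MS fetuses and with MS sires.

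AQP8, a water channel of enterocytes that also conducts ammonia and hydrogen peroxide, fell between day 90 and day 110 in all 4 genotypes. It was 1 of 12 aquaporin probes called for age over the 4 genotypes, where 13.8% of all tested probes were called and 7.71% lower. The 32 fetuses of day 90 lay between 2.40 and 4.48, and 29 of the 31 fetuses of day 110 lay below all of them. MS fetus 401 at 3.25 and LWMS fetus 874 at 2.70 were the exceptions. The medians at day 90 were 3.03 in LW, 3.63 in MS, 3.66 in LWMS and 3.46 in MSLW. The medians at day 110 were -0.39 in LW, 1.47 in MS, 1.43 in LWMS and 1.18 in MSLW.

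Averaged over the genotypes, AQP8 decreased by 2.84 on the log2 scale (SE 0.30, adjusted p = 8.91e-12, limma), 7.16-fold. The fall was 12.1-fold in LW (-3.60, SE 0.54), 7.19-fold in MS (-2.85, SE 0.64), 6.07-fold in LWMS (-2.60, SE 0.54) and 4.99-fold in MSLW (-2.32, SE 0.62). In each single genotype AQP8 was the only one of the 12 probes that was called, against 4.76, 3.12, 9.86 and 5.43% of all tested probes in LW, MS, LWMS and MSLW. Within each of the 8 slides AQP8 was lower at day 110, by between -3.67 and -2.21. Without the 4 fetuses of low enterocyte markers the averaged change was -2.41 (SE 0.21), and that in LW -2.52. The calls in MS and MSLW were close to the threshold (adjusted p = 0.00234 and 0.00854, limma): that in MS was lost without MS fetus 632 (-2.21, adjusted p = 0.012, limma), and that in MSLW in 12 of the 63 fits without 1 fetus (highest adjusted p 0.0234), where the change stayed between -2.44 and -2.12.

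No breed difference of AQP8 was called. MS minus LW was 0.46 at day 90 (95% interval -0.76 to 1.68) and 1.21 at day 110 (0.04 to 2.37), and neither parent's breed was called (0.57 for the sow, -0.03 to 1.16, and 0.27 for the sire, -0.32 to 0.86). In the order of the group means, the 4 groups of day 90 lay above those of day 110. The only step larger than the larger SD of its pair was that between LW at day 90 (3.25 ± 0.66, SD, n = 9) and LWMS at day 110 (1.12 ± 1.26, SD, n = 9).

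AQP3, the aquaglyceroporin of the basolateral membrane of epithelial cells, was called for its spread between fetuses and not for its level with age. On O8153, the brightest probe, the 9 LW fetuses of day 90 averaged 0.81 ± 0.63 (SD) and the 9 of day 110 averaged 0.19 ± 2.09. For MS the means were 1.59 ± 0.42 (SD, n = 6) and then 1.56 ± 2.48 (n = 7). For LWMS they were 1.32 ± 0.36 and then 2.22 ± 0.86 (SD, n = 9 each), and for MSLW 0.70 ± 0.95 (n = 8) and then 2.14 ± 0.87 (n = 6). No step between neighbours in the order of these means exceeded the larger SD. The lowest fetuses at day 110 were MS 632 at -3.39 and LW 572, 575, 557 and 559 at -2.54, -2.10, -1.83 and -1.04. Of the 31 fetuses of day 110, 15 lay above the highest fetus of day 90 and 5 below the lowest.

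The age change of O8153 averaged over the genotypes was 0.42 (95% interval -0.23 to 1.07). Without the 4 fetuses of low enterocyte markers it was 0.89 (SE 0.24, adjusted p = 0.00207, limma) and was called, as were A_72_P136686 (0.88) and A_72_P442022 (0.86), while A_72_P088641 was not. Of the 4 AQP3 probes, A_72_P088641 alone was called for the sow, with 0.94 more in fetuses of MS sows (SE 0.31, adjusted p = 0.0282, limma), and that call was lost without MSLW fetus 578 (highest adjusted p 0.0503). The other 3 gave 0.69 to 0.72 for the sow and were not called. MS minus LW at day 110 was between 1.28 and 2.14 on the 4 probes, with adjusted p from 0.0133 to 0.214 (limma). When fetuses were left out, the value on O8153 ran from 1.01 to 2.20 and was called only without MS fetus 632 (2.20). Without all 4 fetuses of low enterocyte markers, the 3 aquaporin probes called for this comparison were those of AQP10, and none was of AQP3.

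AQP11 and AQP1 had no called difference in the main comparisons. AQP11, an intracellular aquaporin of the endoplasmic reticulum, ran from 0.47 to 2.33 at day 90 and from -1.56 to 2.93 at day 110, with an age change of 0.30 (95% interval -0.05 to 0.65). MS fetus 632 held the lowest level, and the next of its group stood at 1.61. Without the 4 fetuses of low enterocyte markers the age change of AQP11 was 0.54 (SE 0.12, adjusted p = 0.00034, limma) and was called, a change that the removal itself favours. AQP1, the water channel of endothelium and red blood cells, had the brightest probe of the family, A_72_P368933, at 3.42 to 5.73. Its other probes were dim, with means of -2.23 on O8316 and -3.52 on A_72_P302884. Levels of different probes cannot be compared as amounts of RNA, so AQP1 cannot be ranked among the aquaporins. On A_72_P368933 the age change was 0.21 (0.02 to 0.40), with 0.51 in LW (SE 0.17, adjusted p = 0.0439, limma). On O8316 the LW change was 0.68 (SE 0.21, adjusted p = 0.0259, limma) and on A_72_P302884 0.50 (95% interval -0.07 to 1.06). Without the 4 fetuses of low enterocyte markers, A_72_P368933 of AQP1 was called for the sow (0.28, adjusted p = 0.0297, limma). The breed difference of AQP1 at day 110 was between -0.09 and -0.01 on the 3 probes. At day 90 AQP1 was 0.75 (A_72_P302884), 0.43 (A_72_P368933) and 0.60 (O8316) higher in MS, with adjusted p of 0.165, 0.205 and 0.119 (limma) and unadjusted p of 0.0205, 0.0294 and 0.0123, none of them called. On A_72_P368933 this difference was positive on 6 of 6 slides, each with a single MS fetus of that age.

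**Figure D3:**
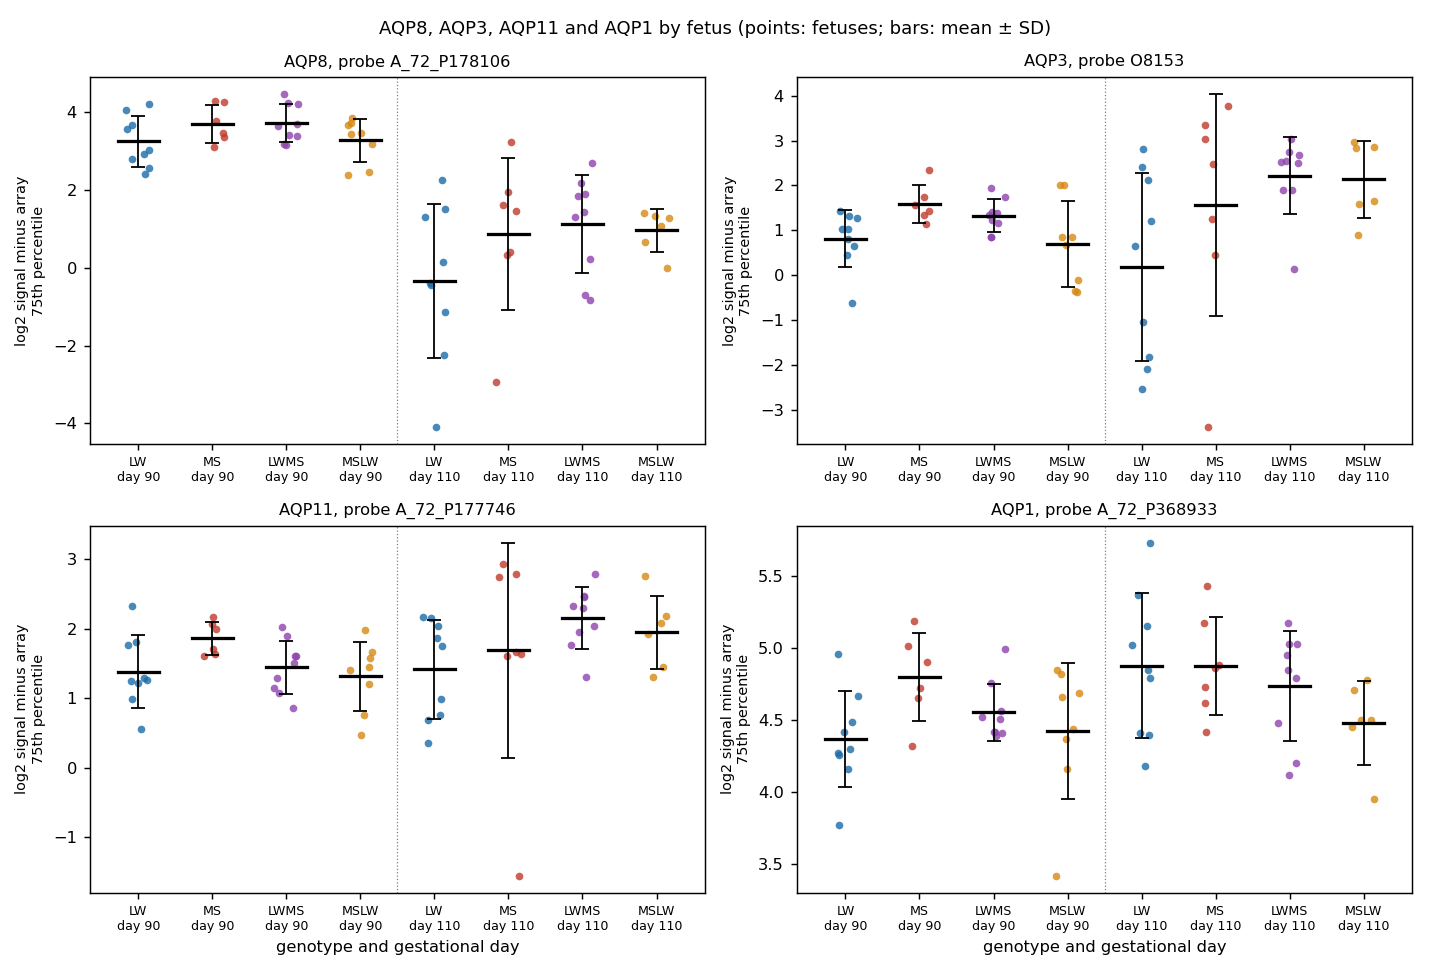
AQP8, AQP3, AQP11 and AQP1, each by its brightest probe, in the 63 fetuses as log2 signal minus the array's 75th percentile (y axes), by genotype and gestational day (x axes). Points are fetuses and bars are mean ± SD. AQP8 lies between 2.40 and 4.48 at day 90 and reaches down to -4.10 at day 110, and AQP1 stays between 3.42 and 5.73.

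The spread between fetuses of one group was wider at day 110 for AQP3 and AQP10. The test compared the absolute deviations of fetuses from their group mean at day 110 and day 90, and called 5 of the 12 aquaporin probes (adjusted p no higher than 0.01), all wider at day 110, where 6.31% of all tested probes were called and 6.05% were wider. These were 3 probes of AQP3 (O8153, A_72_P136686 and A_72_P442022) and 2 of AQP10 (A_72_P442121 and A_72_P613152). Probes of the same gene are not independent measures, so the calls stand for 2 of the 5 tested genes. The pooled SD inside groups of A_72_P442121 was 0.63 at day 90 and 2.19 at day 110, 3.46 times as large, at the 99.4th percentile of all tested probes for this ratio. For O8153 the SDs were 0.64 and 1.74, and for AQP8 0.56 and 1.59 (adjusted p of the spread 0.0115, limma, not called). The median tested probe had 0.39 and 0.44. AQP11 went from 0.44 to 0.89 without a call, and AQP1 on A_72_P368933 had 0.34 and 0.40.

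At day 110 the spread of AQP10 on A_72_P442121 was unequal among genotypes, with an SD of 3.60 in MS (an 850-fold range) and 2.27 in LW (57.2-fold), against 0.92 in LWMS (7.65-fold) and 0.85 in MSLW (4.10-fold). Whether the genotypes differ in spread was not tested. Without the 4 fetuses of low enterocyte markers, 0 of the 12 probes were called for the spread in limma, beside 3.76% of all tested probes. Of the 12, 8 had an unadjusted p under 0.05, and A_72_P442121 gave an adjusted p of 0.0233 (limma). Removing low fetuses of day 110 narrows the spread by itself, so this fit cannot show what the spread rests on.

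**Figure D4:**
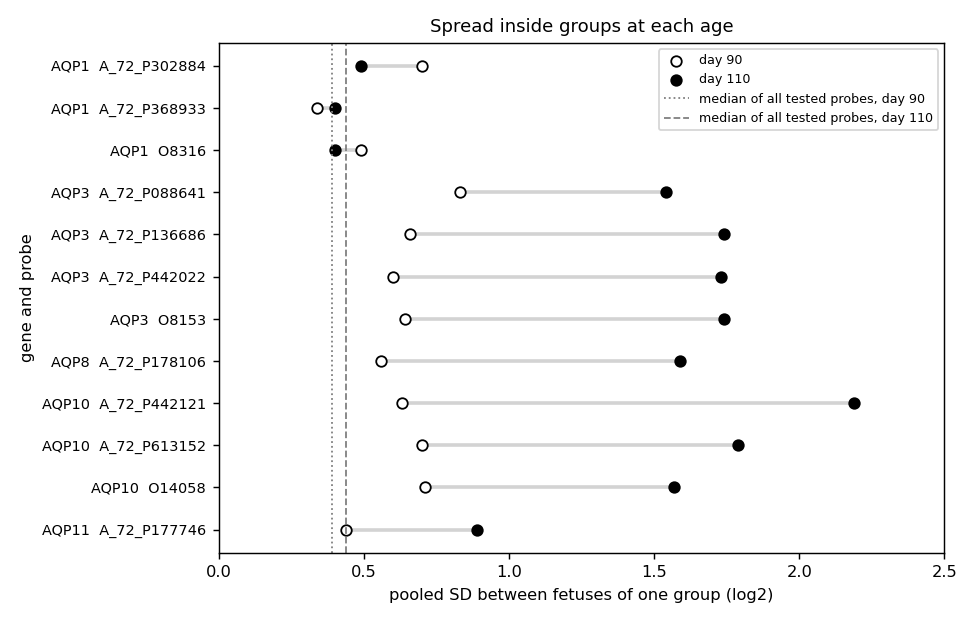
Pooled SD between fetuses of one group in log2 units (x axis) at day 90 (open) and day 110 (filled) for the 12 tested aquaporin probes (y axis). Dotted and dashed lines mark the median of all tested probes at day 90 (0.39) and day 110 (0.44). A_72_P442121 of AQP10 moves furthest, from 0.63 to 2.19.

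The fetuses that were low in one of AQP3, AQP8, AQP10 and AQP11 were largely low in the others. After subtracting group means, over the 31 fetuses of day 110, O8153 (AQP3) had a Pearson r of 0.92 with AQP11, 0.87 with AQP8 and 0.78 with A_72_P442121 (AQP10), and AQP8 had 0.68 with A_72_P442121. These are descriptions of points that share an array and its scaling. At day 90, over 32 fetuses, the same pairs had -0.07, 0.47, 0.63 and 0.71. AQP1 did not follow, with -0.30 to O8153 and -0.24 to A_72_P442121 at day 110.

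Enterocyte markers moved with the same fetuses. Over the 63 fetuses and after subtracting group means, the mean of the 8 markers had an r of 0.91 with AQP3, 0.84 with AQP8, 0.84 with AQP11, 0.78 with AQP10 and -0.20 with AQP1. In the same order, r was 0.95, 0.87, 0.93, 0.78 and -0.25 at day 110. At day 90 it was 0.56, 0.5, 0.25, 0.73 and -0.15, so the link of AQP3, AQP8 and AQP11 was weaker at that age. By group at day 110, LW fetuses averaged 3.48 ± 1.38 (SD, n = 9) for the markers and MS fetuses 3.61 ± 2.10 (n = 7), while LWMS fetuses reached 4.78 ± 0.58 (n = 9) and MSLW fetuses 4.52 ± 0.46 (n = 6), with a range of 2.52 to 4.11 over all fetuses of day 90. Of the 8 markers, 4 rose with age (FABP1, ALPI, SI and LCT) and 2 fell (APOB and ANPEP), beside 6.07% of all tested probes that were higher and 7.71% that were lower. Between the breeds at day 110, 0 of the 8 were called in limma, beside 4.99% of all tested probes, and 2 had an unadjusted p under 0.05. These were SI, 1.88 higher in MS (adjusted p = 0.112, limma), and FABP1, with -0.72 (adjusted p = 0.155, limma). The 6 smooth muscle markers ran the other way at day 110, with r of -0.79 to AQP3, -0.81 to AQP8 and -0.61 to AQP10. At day 90 these r were 0.06, 0.12 and 0.31. The part of these cell types in the aquaporin values was not tested.

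**Figure D5:**
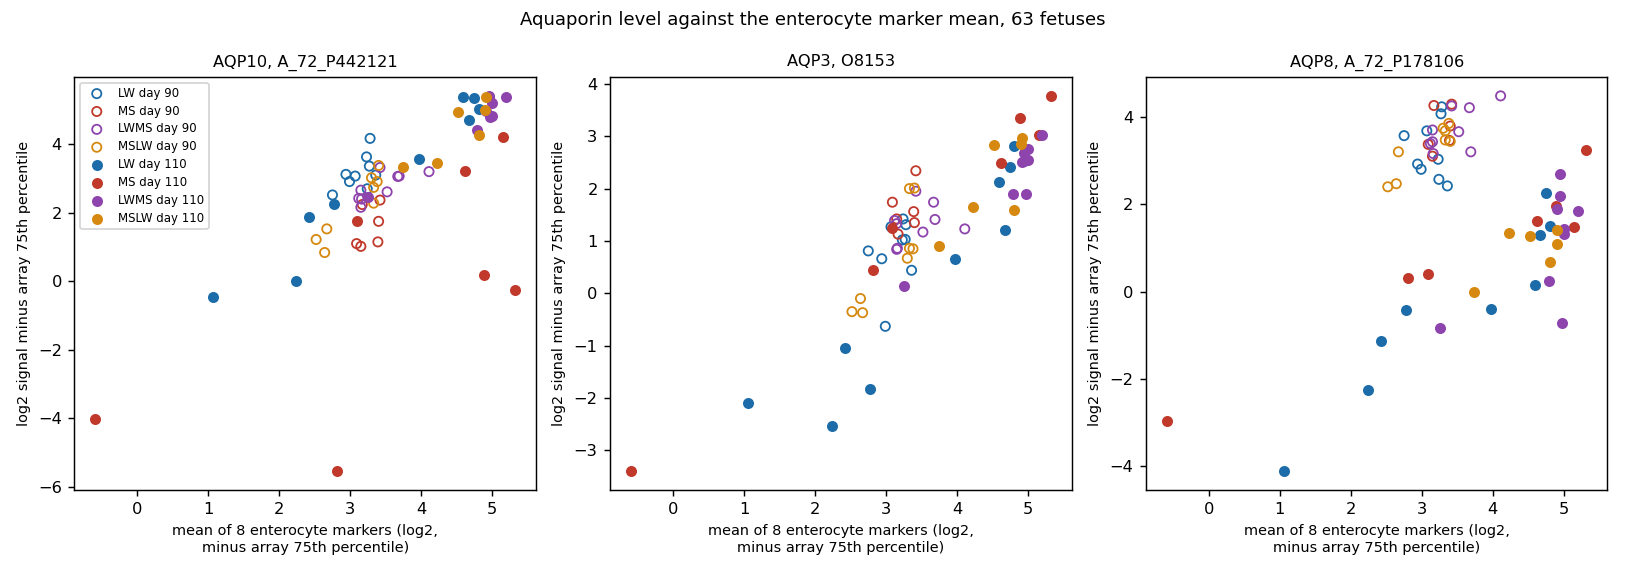
AQP10, AQP3 and AQP8 (y axes, log2 signal minus the array's 75th percentile) against the mean of 8 enterocyte markers (x axes, same unit) in the 63 fetuses. Open points are day 90 and filled points day 110, coloured by genotype. MS fetuses 401 and 409 stand apart in the AQP10 panel, with marker means of 5.32 and 4.89 and AQP10 at -0.25 and 0.17. In the AQP8 panel the points of day 90 lie above most of those of day 110. Since 4 of the 8 markers rose and 2 fell with age, equal marker means at both ages need not be equal enterocyte content.

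Among 18444 named probes without a missing value, the genes whose levels followed A_72_P442121 most closely over the 63 fetuses were IL10RB (r = 0.78), ITIH1 (0.77), GCAT (0.77), DENND5B (0.75) and SDSL (0.75). After subtracting group means they were APOA2 (0.87), MMP25 (0.84), APOM (0.82), ACE (0.82) and HTR1D (0.81), where APOA2 and APOM encode apolipoproteins and ACE the angiotensin-converting enzyme of the brush border. AQP8 was followed most closely by LECT2 (0.93), PLA1A (0.91), PSPH (0.90), VAT1 (0.89) and BTBD3 (0.89), and after subtracting group means by CTSZ (0.90), SLC7A7 (0.90), PDZK1IP1 (0.89), PPP1R1A (0.88) and PIP4K2C (0.88). SLC7A7 encodes a basolateral transporter of cationic amino acids. No gene was in the lists of both aquaporins.

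Other genes of fluid transport are given for comparison. Of 30 genes of ion, fluid and osmolyte transport, 24 were tested, and for age over the 4 genotypes 8 rose, 3 fell and 13 were not called, beside 6.07% higher and 7.71% lower among all tested probes, with a median difference of 0.26 against -0.02 for all of these. SLC26A3, the chloride and bicarbonate exchanger of the apical membrane, fell 4.88-fold with age (-2.29, SE 0.36), as AQP8 did, and at day 110 was 7.08-fold higher in MS than in LW (2.82, SE 0.71, adjusted p = 0.00505, limma). The ligands of guanylate cyclase C, which drive fluid secretion, fell with age, by 1.25 (GUCA2B, SE 0.16) and 0.93 (GUCA2A, SE 0.19) on the log2 scale. SLC4A4, a sodium bicarbonate cotransporter, rose 3.10-fold, the sodium proton exchanger SLC9A2 2.71-fold and the sodium glucose cotransporter SLC5A1 2.66-fold. SCNN1A, a subunit of the epithelial sodium channel, rose by 0.90 (SE 0.25). AKR1B1, which makes the osmolyte sorbitol, was the other called gene between the breeds at day 110, 1.83-fold lower in MS, so that 2 of the 24 were called beside 4.99% of all tested probes. For the spread, 7 of the 24 were wider at day 110, beside 6.05% of all tested probes, among them SLC26A3, SLC5A1, KCNN4 and SGK1.

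Aquaglyceroporins carry glycerol, so 19 genes of glycerol handling were set beside them, of which 15 were tested. With age 5 rose, 0 fell and 10 were not called, beside 6.07% higher and 7.71% lower among all tested probes, with a median difference of 0.13. GK, the glycerol kinase, rose by 1.59 (SE 0.31, adjusted p = 3.23e-05, limma), the glycerol phosphate dehydrogenase GPD1 by 1.16 (SE 0.23) and the lipoprotein lipase LPL by 0.72 (SE 0.13). PCK1 rose by 1.44 (SE 0.19) and G6PC, the last enzyme of glucose release, by 5.08 (SE 0.25), 33.8-fold. Between the breeds at day 110, G6PC was 8.24-fold and LPIN3 1.53-fold higher in MS, beside 1.84% of all tested probes called higher. GK, GPD1, PCK1, G6PC, LPL and DGAT2, 6 of the 15, were wider in spread at day 110, beside 6.05% of all tested probes.

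AQP4, AQP7 and AQP9 were not above background on most arrays, and AQP5 was above it on 32 of 63 but on too few arrays of any 1 group to be tested. AQP4, a water channel of glia and basolateral membranes, was well above background on at most 3 of 63 arrays with any of its 3 probes, and AQP9, an aquaglyceroporin of liver and leukocytes, on at most 6 with its 2 probes. AQP5, a water channel of secretory glands, was above it on 13 of 32 arrays at day 90 and 19 of 31 at day 110. Its levels at day 90 lay between -7.65 and -4.30, and 16 fetuses of day 110 lay higher, up to 1.41 in MS fetus 623 and 0.83 in LW fetus 575. AQP7, an aquaglyceroporin of fat cells, was above background on 1 array of day 90 and 12 of day 110 with A_72_P106716, and on 0 and 12 with the identical O545. The AQP7 arrays of day 110 with A_72_P106716 came from MS (5 of 7), LWMS (5 of 9), MSLW (2 of 6) and LW (0 of 9).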

How the data were processed

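RNA of 63 fetal jejuna was labelled with Cy3 and hybridised to one-colour Agilent arrays (61625 spots, 1319 of them control spots). The authors deposited the scanner output, read with Agilent Feature Extraction 10.10.1.1 per the submitters' notes, as intensity values, and a matrix of log2 values of 39446 probes. Each column of the matrix had a median of 8.61 and correlated at 0.989 to 0.997 with its array, so its scale and direction were settled, while the method of its normalization was not given in the sources used here.

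From the scanner files, log2 processed signals of spots not marked as outliers were set against the array's 75th percentile, and spots of a probe were averaged. Probes were kept where 75% or more of the fetuses of any of the 8 groups had a signal well above background (40515 of 60305, 2775 with missing values). limma 3.58.1 in R 4.3.3 fitted the 8 group means, and p-values were adjusted by Benjamini-Hochberg over all kept probes. Age and breed differences needed an adjusted p no higher than 0.01 and a log2 difference of 0.5 or more, interactions and spread at 0.01, the F test under 0.01, and parental effects under 0.05. The study modelled the sow as a random effect, which the labels did not allow. Spread was tested on absolute deviations from group means. On simulated arrays, 48.5% of 200 probes shifted by 1 in MS at day 110 were called for MS minus LW at day 110, among 40515, with 1 false call, and 59% of 200 probes with 3 times the spread were called for the spread, with 5 false calls. Errors were independent and normal, without littermates, and the probes were drawn at random. The shares need not hold for the AQP3, AQP8 and AQP10 probes, whose SD inside groups was 1.19 to 1.60 against a median of 0.43.

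Arrays came from 8 slides of 7 or 8 arrays, each holding both ages. The number of arrays limits the precision. Each gene was represented by its brightest tested probe, all tested probes of members being reported too, and the 5 genes most like AQP10 and AQP8 were named by Pearson r. Gene names came from the array, and 2631 locus names from RefSeq (Sscrofa11.1). The members, gene lists and rules were chosen with earlier results of these data known. Alternatives were the background correction, centring, quantile normalization, the deposited matrix, filters, slide, array weights, purebred fetuses alone and leaving fetuses out.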

Additional observations from a re-analysis of the deposited data

Results flagged for a closer look

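In groups of 6 to 9 fetuses, the gap of the extreme fetus to its neighbour was set against the group's range. It was large in 6 of 56 groups examined for the brightest probes and the AQP10 probes. Chance alone flags about 1 in 20 where values are normal and groups independent. Probes of the same gene and the same fetus recur among the flags, so the count cannot be read as an excess. LWMS fetus 609 at day 110 was the low extreme of AQP3 (O8153, 0.14), of AQP10 on A_72_P442121 (2.47), on A_72_P613152 (0.07) and on O14058 (-4.03). LW fetus 895 at day 90 was low for AQP3 (-0.63), and MS fetus 632 at day 110 for AQP11 (-1.56). Among the probes left out of the tests, more arrays were well above background at day 110 than at day 90 for AQP5 (19 against 13) and for AQP7 (12 against 1 on A_72_P106716 and 12 against 0 on O545).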

How the results depend on the processing

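Counts are of the 12 aquaporin probes tested in the report, except with the deposited matrix and without the filter on dim probes, where AQP5, and without the filter AQP7, AQP4 and AQP9 too, entered the test and the count. For age over the 4 genotypes, against 1 in the report, 2 probes were called with normexp background correction, 3 with the deposited matrix (2 of the 12, and AQP5), 4 without the filter (1 of the 12, AQP5 with 2.17, and both AQP7 probes with 1.76 and 1.70), 3 with array weights and 8 without the 4 fetuses of low enterocyte markers. For age in MSLW these settings gave 2, 2, 0, 2 and 3, and the array median and the slide block gave 0 each, against 1. For age in MS, 2 were called without the filter (1 of the 12, and an AQP7 probe), 0 with array weights and 0 with purebred fetuses alone, against 1. For age in LW and LWMS array weights gave 3 and 4, and LWMS gave 2 without the 4 fetuses, against 1 each. For MS minus LW at day 110, the slide block, purebred fetuses alone and leaving out LW fetuses 484 and 469 together gave 1 each and array weights 7, against 2. For sow and sire, array weights gave 7 and 7, and the sow 7 without the 4 fetuses, against 2 and 3. The F test gave 11 with array weights and 7 without the 4 fetuses, against 4. Array weights also raised the shares of all tested probes called, to 14.5% for MS minus LW at day 110, 31.6% for the sow, 15% for the sire and 54.6% for the F test, while these were 16.1% for the sow and 29.9% for the F test without the 4 fetuses. For the spread, 8 were called without the filter (the same number of the 12 as in the report, 5, and 3 probes of AQP5 and AQP7), 3 with the slide block and 0 without the 4 fetuses, against 5. Leaving out the 4 fetuses raises day 110 levels, narrows the spread and, as most of them are LW, shifts the breed and sow comparisons in advance. Beyond this and the probes that entered, the cause of these shifts was not tested.

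Leaving out single fetuses, or LW fetuses 484 and 469 together, gave 1 to 2 calls for age over the genotypes (2 without LW 575), 1 to 1 in LW and in LWMS, 0 to 1 in MS (0 without MS 632) and 0 to 1 in MSLW. For MS minus LW there were 1 to 1 calls at day 90 and 1 to 5 at day 110 (5 without MS 632). The sow gave 1 to 7 (1 without MSLW 578, 7 without MS 632), the sire 3 to 3, the F test 4 to 9 (9 without MS 632) and the spread 5 to 7, and the 3 interactions 0 to 0. Apart from these fits, the 18 called differences took 167 values, of which 152 kept their call, 15 lost it and 0 changed direction. The 36 other differences took 337 values, of which 34 became called and 0 changed direction. No paired analysis was possible because the fetus numbers are unique and no number is shared between groups. Probes near background, such as O14058 in MS fetuses, AQP5 and AQP7, have levels limited by signal over background.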

Other observations

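AQP2, a water channel known from the kidney, was measured by A_72_P414263 between -4.24 and -2.08 over the 63 fetuses, with an age change of 0.11, and was not called in any comparison. AQP6 was well above background on few arrays, with levels up to -0.46 in an MS fetus at day 90.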
